A study of Mus musculus with 24 samples.

Results

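Collagen genes were examined across a time course of heart injury in the mouse. Each member is a protein-coding gene whose symbol names a collagen chain and whose uniquely mapped reads, summed over all 24 libraries, reached 50 or more. The members were therefore chosen by their measured summed counts, and 37 of the 44 protein-coding collagen symbols met the rule, among 46078 annotated genes. Just inside the limit lay Col17a1 with 78 reads in all and Col8a2 and Col9a2 with 130 each, and just outside it Col24a1 with 28 and Col2a1 with 25. The other 5 genes outside the rule were Col11a1, Col10a1, Col6a4, Col9a1 and Col19a1, with 17 to 1 reads.

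The libraries came from hearts of C57BL/6 mice, with 3 libraries in each of 8 groups. The controls had sham surgery. A second group had 45 min of ischemia without reperfusion, and the other 6 had the same 45 min followed by 0.5, 1, 1.5, 3, 6 or 12 h of reperfusion, the return of blood flow. The labels name neither age nor sex nor the part of the heart taken. They also do not say whether each library is a different animal, and the p-values therefore reflect only the spread among these libraries, which may be technical.

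Collagens are the main structural proteins of the extracellular matrix, and their chains assemble into helical trimers inside the cell before they are secreted. In the heart, types I and III form the fibrils between muscle bundles and are made mostly by fibroblasts, while type IV forms the sheet-like network of basement membranes around cardiomyocytes and capillaries. Other classes link fibrils to each other, connect cells to the matrix, or span the cell membrane.

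Libraries held 13407465 to 17181458 uniquely mapped reads, and reads of mitochondrial genes made up 19.0% to 33.2% of them. The mitochondrial share was 28.9% to 33.2% in sham, 20.5% to 25.5% at 3 h, 19.04% to 21.3% at 6 h and 20.6% to 24.04% at 12 h. All sham libraries thus lay above all libraries of these later times, while those after ischemia, at 19.0% to 30.2%, overlapped with sham. The part of this difference in the comparisons with sham was not tested. The collagen genes held 0.235% to 0.536% of the uniquely mapped reads. The third ischemia library stood apart from its group, with 0.481% collagen reads against 0.269% and 0.306%, as did the first 1 h library with 0.235%, the second 3 h library with 0.273% and the third 12 h library with 0.295%. Summed levels of 8 ventricular cardiomyocyte markers ranged from 42029 to 78896 counts per 1000000 reads (CPM, scaled by TMM factors) over the 24 libraries, so heart muscle genes were abundant in each. Markers of skeletal muscle (6 genes) summed to at most 2.32 CPM and those of cartilage (7 genes) to at most 13.95 CPM, and the skeletal myosin gene Myh4 and the cartilage gene Matn3 were at 0 reads in sham.

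Among collagen genes in sham hearts, the basement membrane genes Col4a1 and Col4a2 had the highest RNA levels per length. RNA levels do not give amounts of collagen protein. Per kb of deposited gene length, Col4a1 was highest at 124 ± 5.42 CPM per kb (SD, n = 3), followed by Col4a2 at 87.7 ± 4.38 and Col3a1 at 43.2 ± 1.71. The type VI chain Col6a1 at 31.9 ± 1.59 and the basement membrane-associated Col15a1 at 31.2 ± 2.61 did not differ beyond their spread. Below them came Col1a1 at 20.6 ± 2.32, then Col6a2 at 14.6 ± 0.705 and Col1a2 at 14.2 ± 1.13 CPM per kb, 2 neighbours whose sham libraries overlapped. The deposited lengths were 12136 bases for Col1a2 against 6563 for Col1a1. A length that counts many rarely used exon bases lowers the per-kb level of its gene. For Col4a1 the deposited length was 6818 bases, while the annotation used here held 7464 exon bases.

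Basement membrane genes held a larger share and fibril-forming genes a smaller share of collagen reads at 3, 6 and 12 h than in sham. At 0.5 h the shift was smaller, and after ischemia alone it went the other way. The 6 type IV genes held 48.3% to 49.6% of collagen reads in the sham libraries, 50.9% to 53.7% at 0.5 h, 50.2% to 53.8% at 1.5 h, 59.6% to 63.6% at 3 h, 74.2% to 80.4% at 6 h and 62.4% to 68.4% at 12 h. The 8 fibril-forming genes held 29.6% to 29.9% in sham, 27.9% to 28.9% at 0.5 h, 25.5% to 29.98% at 1.5 h, 19.3% to 23.2% at 3 h, 8.19% to 12.97% at 6 h and 14.5% to 21.8% at 12 h. For both classes the 0.5, 3, 6 and 12 h libraries lay outside the sham range, and for type IV also those at 1.5 h. After ischemia the type IV shares, 44.9% to 48.30%, lay below the lowest sham library at 48.34%. The fibril-forming shares after ischemia, 30.5% to 32.8%, lay above all sham libraries. At 1 h both classes overlapped with sham, at 46.5% to 51.5% for type IV and 29.2% to 31.0% for fibril-forming genes. A share falls when another class rises, so the levels of each gene are given below.

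**Figure D1:**
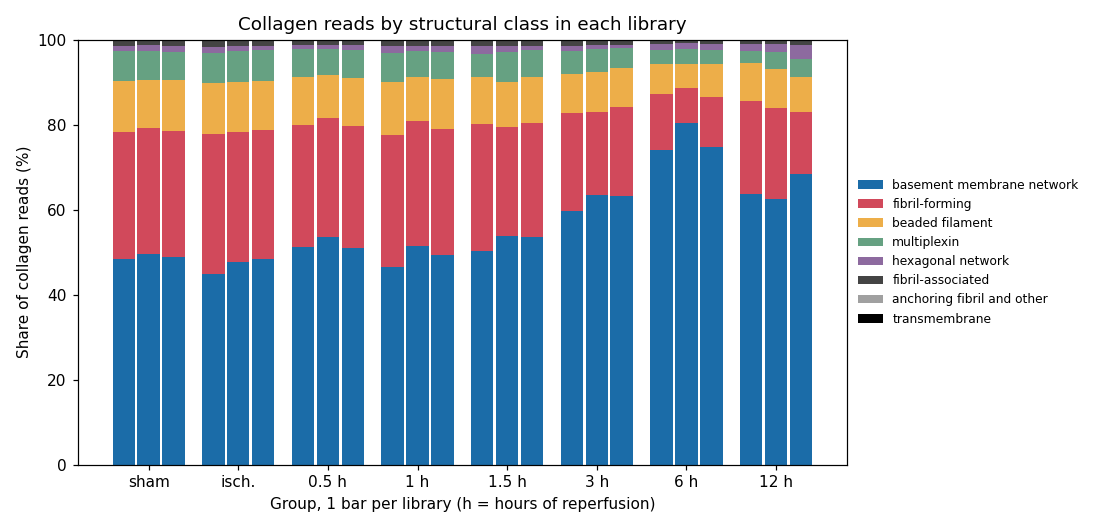
Share of the collagen reads (percent, y axis) held by each structural class in each of the 24 libraries, 1 bar per library, grouped by treatment on the x axis. The basement membrane share was 48.3% to 49.6% in the sham libraries and 74.2% to 80.4% at 6 h, and the fibril-forming share was lowest at 6 h, at 8.19% to 12.97%.

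Of the 37 members, 36 passed the filter on low counts and were tested, and Col17a1, a transmembrane collagen with 78 reads in all, did not pass. Against sham, 6 of the 36 were higher and 0 lower at 3 h, where 18.4% of all 15128 genes tested were higher and 16.9% lower. At 6 h, 8 were higher and 14 lower, which is 22.2% and 38.9% of the members, beside 24.6% and 22.9% of all genes. At 12 h, 7 were higher and 8 lower, 19.4% and 22.2% of the members, beside 16.9% and 14.9% of all genes. The members' shares were thus near the background for higher calls at all 3 times, below it for lower calls at 3 h and above it for lower calls at 6 h. At 12 h the share of lower calls was above the background by few genes. The 8 lower calls there became 6 with read totals as the scale and 9 without the third sham library. Without the first 3 h library the 3 h split was 3 higher and 1 lower, and without a filter on low counts 2 were lower at 3 h. The median log2 fold change of the members was 0.19 at 3 h, -0.33 at 6 h and -0.17 at 12 h, against -0.01, -0.01 and 0.01 for all genes tested. A test over all 8 groups called 24 of 36 members, 66.7%, beside 64.3% of all genes.

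The members called at the late times were partly the same genes. At both 6 and 12 h, 13 members were called, 6 of them higher and 7 lower each time. At 6 h but not at 12 h 9 more were called, and at 12 h but not at 6 h 2 were. No member was called higher in one comparison with sham and lower in another, and 11 of the 36 were called in none. These comparisons share the 3 sham libraries. Of all 15128 genes tested, 7174 were called at 6 h and 4807 at 12 h. How many of those were called at both times, or in no comparison, was not counted. The overlap is therefore not shown to be particular to collagen genes. When read totals alone set the scale, the median of all genes moved by 0.22 on the log2 scale at 12 h, and the split became 8 higher and 6 lower there. At 6 h the same scaling gave 8 higher and 11 lower.

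**Figure D2:**
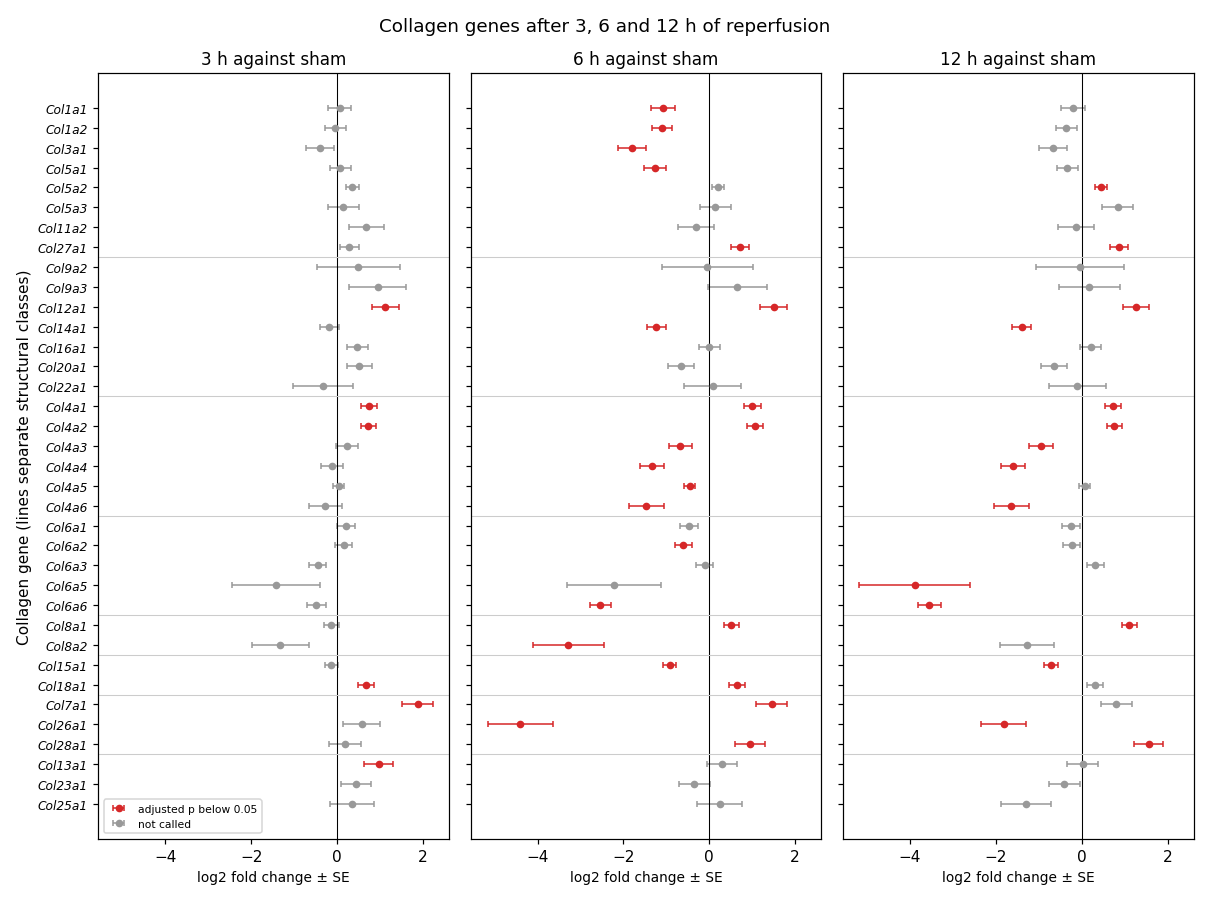
Log2 fold change against sham (x axis) with its standard error for the 36 tested collagen genes (y axis, grouped by structural class) at 3, 6 and 12 h, with called genes in red. At 6 h 8 genes were called higher and 14 lower, with Col4a1 and Col4a2 on the opposite side of zero from the other 4 type IV genes; values for Col26a1, Col8a2 and Col6a5 rest on few reads.

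Type IV collagen genes lie in pairs, each pair head to head on opposite strands. Col4a1 and Col4a2 encode the common network of nearly all basement membranes, and the chains of Col4a3, Col4a4 and Col4a5 form the network of specialised membranes such as that of the kidney glomerulus. In mm10, the starts of Col4a1 (chr8:11198423-11312826, minus strand) and Col4a2 (chr8:11312805-11449287, plus strand) overlap by 22 bases. Between the starts of Col4a4 (chr1:82448423-82586849, minus strand) and Col4a3 (chr1:82586921-82722059, plus strand) lie 71 bases with no annotated exon. Between Col4a6 (chrX:141165403-141474076, minus strand) and Col4a5 (chrX:141475385-141689234, plus strand) lie 1308 bases.

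The stretch between Col4a4 and Col4a3 and the 250 bases before Col4a6 are shown because these pairs are compared below. They come from RefSeq (GRCm38.p6), read 5′ to 3′ on the strand of the named gene and ending just before its start. Capitals mark a GC box, GGGCGG on either strand, in the Col4a6 stretch.
Col4a4, chr1:82586850-82586920, minus strand: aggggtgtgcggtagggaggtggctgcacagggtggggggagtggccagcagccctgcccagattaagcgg
Col4a6, chrX:141474077-141474326, minus strand: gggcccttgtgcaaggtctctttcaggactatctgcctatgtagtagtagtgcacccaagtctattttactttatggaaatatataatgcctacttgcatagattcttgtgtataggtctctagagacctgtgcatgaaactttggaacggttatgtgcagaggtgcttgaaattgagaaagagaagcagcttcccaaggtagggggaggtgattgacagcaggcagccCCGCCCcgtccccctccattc

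Neither stretch held the TATA box TATAAA, the CCAAT box or the AP-1 core TGANTCA on either strand.  RefSeq windows of 300 bases were found for 29 of the 37 members, 31 windows in all. A GC box was present in 21 of the 31 collagen windows, 67.7%, and in 35.7% of all 32851 mouse windows. TATAAA was present in 4 collagen windows, 12.9%, against 13.6% of all windows, CCAAT in 10, 32.3%, against 37.4%, and the AP-1 core in 1, 3.23%, against 7.81%. These are matches of letters, not measured binding.

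Col4a1 and Col4a2 rose at 3 h and were highest at 6 h. Sham libraries held 874, 856 and 803 CPM of Col4a1, the 3 h libraries 1535, 1133 and 1587, the 6 h libraries 1699, 1720.1 and 1653 and the 12 h libraries 1688, 1429 and 1063. Every library from 3 h on was above every sham library. The log2 fold change was 0.75 ± 0.19 (SE) at 3 h, 1.00 ± 0.19 at 6 h, a 2.002-fold difference, and 0.72 ± 0.19 at 12 h, with adjusted p of 0.0038, 0.00016 and 0.0052 (edgeR quasi-likelihood test, adjusted over all genes tested).

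Col4a2 moved with it. Its level was 611, 577 and 553 CPM in sham, 998, 795 and 1094 at 3 h, 1227, 1259.9 and 1148 at 6 h and 1161, 975 and 808 at 12 h, again with no overlap with sham from 3 h on. The log2 fold changes were 0.73 ± 0.18, 1.06 ± 0.18 and 0.76 ± 0.18, with adjusted p of 0.0025, 3.3e-05 and 0.0019. The level of Col4a1 relative to Col4a2, per length, stayed between 1.28 and 1.49 in all 24 libraries. Before 3 h the third ischemia library held the most Col4a1, 1175 CPM, with the second 0.5 h library at 1173. At 12 h the third library was lowest and the first highest for both.

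The other 4 type IV genes fell. Col4a4 was at 19.6, 17.5 and 21.5 CPM in sham, 24.4, 12.8 and 16.6 at 3 h, 11.5, 5.61 and 6.04 at 6 h and 9.17, 5.15 and 5.06 at 12 h. All 6 and 12 h libraries lay below all sham libraries, while the 3 h libraries overlapped with them. Against sham the log2 fold change was -1.33 ± 0.28 at 6 h (adjusted p = 0.00037) and -1.59 ± 0.28 at 12 h (adjusted p = 0.00012).

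Its neighbour Col4a3 was at 8.73, 7.88 and 9.35 CPM in sham, 14.7, 6.73 and 8.91 at 3 h, 8.57, 3.72 and 3.92 at 6 h and 5.33, 3.44 and 4.66 at 12 h. The first 6 h library lay within the sham range and all 12 h libraries below it. This was a log2 fold change of -0.67 at 6 h (adjusted p = 0.047) and -0.95 at 12 h (adjusted p = 0.011). The 6 h call was lost without any 1 of 5 libraries, with -0.46 (adjusted p = 0.22) without the second and -0.49 (0.19) without the third 6 h library, and 0.092, 0.061 and 0.11 without sham libraries 1, 2 and 3. With read totals as the scale the 6 h call was also lost (adjusted p = 0.11). The same held with duplicates removed (0.090), multimapped reads included (0.055) or only the compared libraries (0.080). Without the second 12 h library the 12 h value was -0.78 (adjusted p = 0.069), and with read totals as the scale it was -0.74 (0.068). Of its exon bases, 5.65% are shared with the antisense gene C430014B12Rik, and the sources used here do not say whether counting used strand.

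Col4a6 was a low-count gene, with 26, 25 and 30 reads in the sham libraries, 14, 11 and 9 at 6 h and 13, 12 and 9 at 12 h. Its level was 1.67, 1.71 and 2.399 CPM in sham, 2.83, 0.887 and 0.975 at 3 h, 0.828, 0.671 and 0.561 at 6 h and 0.714, 0.606 and 0.512 at 12 h, so that the first 3 h library was the highest of these and the 6 and 12 h libraries were all below sham. On the log2 scale its difference from sham was -1.47 ± 0.41 at 6 h (adjusted p = 0.0052) and -1.64 ± 0.41 at 12 h (adjusted p = 0.0037).

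Col4a5 was lower at 6 h but was back near sham at 12 h, unlike its neighbour Col4a6. It was at 76.99, 73.9 and 80.4 CPM in sham, 83.9, 74.03 and 79.8 at 3 h, 57.1, 53.1 and 58.4 at 6 h and 90.03, 81.1 and 72.4 at 12 h. The 6 h libraries were below all others of these groups. The fitted log2 fold change was -0.46 ± 0.13 at 6 h (adjusted p = 0.0044) and 0.07 ± 0.12 at 12 h (adjusted p = 0.69). With read totals as the scale the 6 h value was -0.40 (adjusted p = 0.052). The ratio of Col4a5 to Col4a6, per length, was 54.7, 51.2 and 39.8 in sham and 149.6, 159 and 168 at 12 h.

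**Figure D3:**
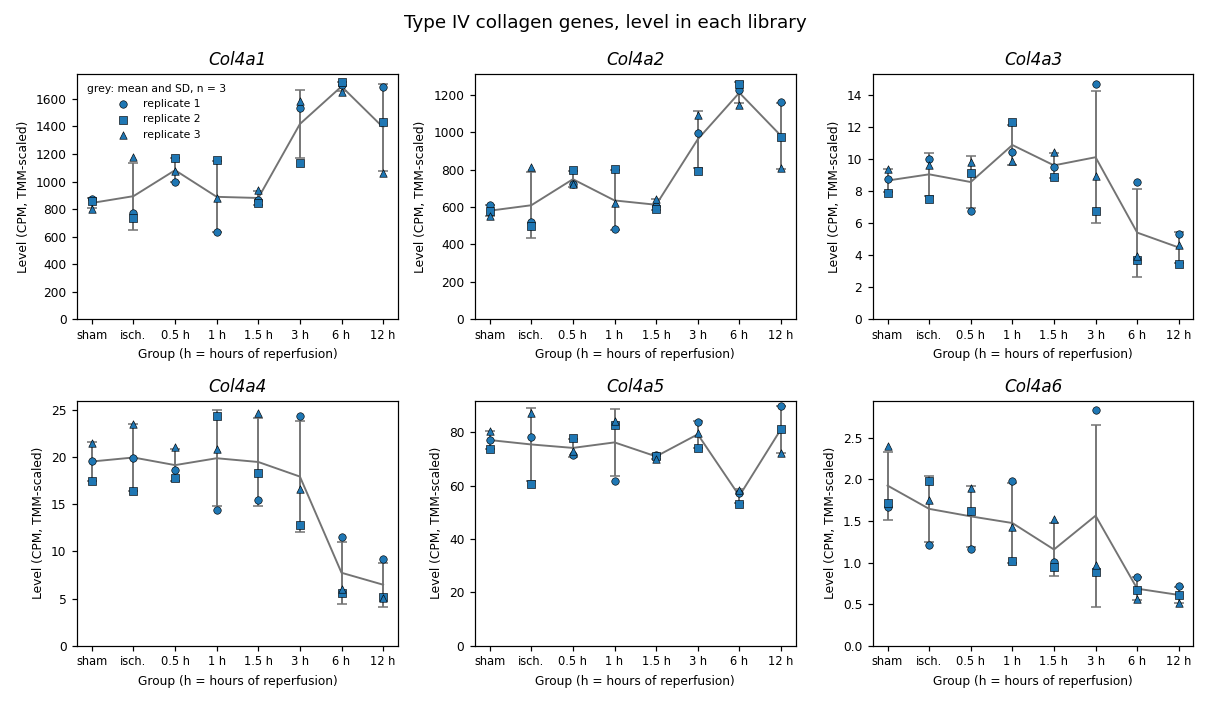
Level of the 6 type IV collagen genes (CPM, y axis from 0) in each of the 24 libraries by group (x axis), with the group mean and SD (n = 3) in grey. All Col4a1 and Col4a2 libraries from 3 h on lay above all sham libraries, while Col4a4 and Col4a6 lay below sham at 6 and 12 h and Col4a5 at 6 h.

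Of the fibril-forming collagens, Col1a1, Col1a2, Col3a1 and Col5a1 fell at 6 h and were not called at 12 h. This class includes Col1a1 and Col1a2, the chains of type I, Col3a1, the chain of type III, and Col5a1 and Col5a2, chains of type V, which helps to start and limit fibril growth. Of 8 tested members, 0 were called at 3 h, 1 was higher and 4 were lower at 6 h, beside 24.6% and 22.9% of all genes, and 2 were higher and 0 lower at 12 h, beside 16.9% and 14.9%. In this bulk tissue, fewer cells of a type and less RNA per cell cannot be told apart.

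The 250 bases before Col3a1, which showed the largest fall of the class, and before Col5a1 are shown to compare their start regions, from RefSeq (GRCm38.p6) and read 5′ to 3′ towards the start. Capitals mark TATAAA in Col3a1 and GC boxes in Col5a1, on either strand.
Col3a1, chr1:45311288-45311537, plus strand: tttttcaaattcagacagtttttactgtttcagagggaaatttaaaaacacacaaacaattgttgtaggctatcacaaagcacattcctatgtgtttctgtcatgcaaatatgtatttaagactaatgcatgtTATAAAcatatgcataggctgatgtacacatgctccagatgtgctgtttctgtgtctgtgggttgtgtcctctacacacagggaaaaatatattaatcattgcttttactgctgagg
Col5a1, chr2:27886175-27886424, plus strand: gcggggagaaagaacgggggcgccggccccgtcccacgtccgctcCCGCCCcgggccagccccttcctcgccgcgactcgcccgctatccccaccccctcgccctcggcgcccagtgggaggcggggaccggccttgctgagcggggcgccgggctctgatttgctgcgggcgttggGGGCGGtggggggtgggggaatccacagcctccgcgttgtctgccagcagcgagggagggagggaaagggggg

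The stretch before Col3a1 had a GC content of 35.2% and no GC box, and that before Col5a1 had 76.4% and 2 GC boxes. Both genes fell at 6 h. Neither stretch held the CCAAT box or the AP-1 core.

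Col3a1 was at 438, 406 and 429.8 CPM in sham and 444, 186 and 337 at 3 h. At 6 h its libraries held 169, 69.6 and 126 CPM, and at 12 h 359.9, 330.5 and 109. All 6 and 12 h libraries were below sham, and the third 12 h library was as low as those at 6 h. edgeR gave a log2 fold change of -1.80 ± 0.33 at 6 h, 0.287 times the sham level (adjusted p = 0.00011), and -0.67 ± 0.32 at 12 h, which did not pass (adjusted p = 0.12).

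Type I genes moved alike. Col1a1 was at 149, 138 and 119 CPM in sham, 153, 111 and 159 at 3 h, 85.6, 41.8 and 65.5 at 6 h and 165, 129 and 57.9 at 12 h. Col1a2 was at 188, 165 and 164 CPM in sham, 205, 122 and 176 at 3 h, 107, 54.2 and 80.1 at 6 h and 174, 144 and 85.9 at 12 h. For both, no 6 h library reached the sham range, and the third 12 h library stayed at the 6 h level while the other 12 h libraries were near sham. The 6 h log2 fold changes were -1.07 ± 0.28 for Col1a1 (adjusted p = 0.0029) and -1.10 ± 0.24 for Col1a2 (adjusted p = 0.00063), and the 12 h values, -0.20 and -0.36, did not pass (adjusted p = 0.61 and 0.27).

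The type V chains parted. Col5a1 was at 84.6, 85.8 and 82.5 CPM in sham, 103, 71.4 and 92.3 at 3 h, 45.3, 23.1 and 36.7 at 6 h and 82.3, 73.4 and 45.1 at 12 h, with a 6 h log2 fold change of -1.27 ± 0.25 (adjusted p = 0.0002). Col5a2 was at 55.1, 57.4 and 57.4 CPM in sham, 81.9, 60.8 and 74.9 at 3 h, 64.3, 62.5 and 67.9 at 6 h and 93.3, 74.2 and 64.1 at 12 h, all of them at 6 and 12 h above the sham range. Its log2 fold change was 0.20 ± 0.14 at 6 h (adjusted p = 0.27) and 0.45 ± 0.14 at 12 h (adjusted p = 0.02). The 12 h call of Col5a2 was lost without the first 12 h library (0.30, adjusted p = 0.16) and without the first sham library (0.43, adjusted p = 0.062). Per length, Col5a1 stood at 1.73, 1.69 and 1.62 times Col5a2 in sham, 0.796, 0.418 and 0.611 times at 6 h and 0.997, 1.12 and 0.794 times at 12 h. This ratio was above all sham libraries at 0.5 h, at 2.08 to 2.19, and already below them at 3 h, at 1.33 to 1.42.

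Col27a1, a fibril-forming collagen known from cartilage, rose at 6 and 12 h. It was at 5.84, 5.34 and 4.32 CPM in sham, 7.92, 10.1 and 7.598 at 6 h and 8.46, 8.44 and 11.5 at 12 h, with no overlap with sham at either time. The log2 fold change was 0.72 ± 0.21 at 6 h (adjusted p = 0.0069) and 0.87 ± 0.21 at 12 h (adjusted p = 0.0025). The summed cartilage markers were 1.12 to 2.88 CPM in sham, 6.15 to 13.95 at 6 h and 2.90 to 6.47 at 12 h, with Sox9 and Chad called higher and Matn1, Matn3 and Hapln1 at or near 0. Their part in the result was not tested. The 2 remaining members, Col5a3 and Col11a2, were not called at any time, with log2 fold changes of 0.14 and -0.31 at 6 h. Col5a3 was at 62.9, 56.9 and 27.7 CPM in sham and 124, 102 and 39.2 at 12 h, and Col11a2 at 2.44, 2.53 and 2.08 and 1.59, 2.63 and 2.22.

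**Figure D4:**
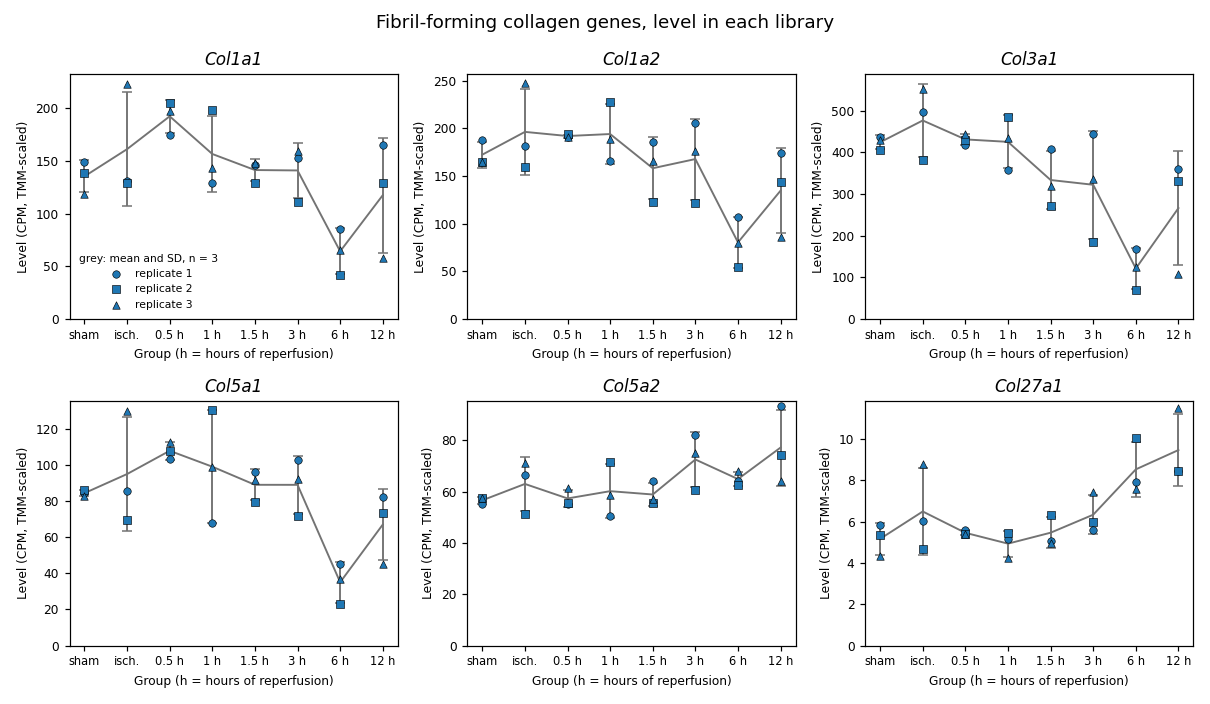
Level of 6 fibril-forming collagen genes (CPM, y axis from 0) in each library by group (x axis), with the group mean and SD (n = 3) in grey. Col1a1, Col1a2, Col3a1 and Col5a1 were below sham in all 6 h libraries, and the third of their 12 h libraries remained low, while Col27a1 was above sham at 6 and 12 h.

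Among fibril-associated collagens, which sit on the surface of fibrils, 1 gene rose and 1 fell at both late times. Col12a1, which links fibrils in tissue under load, was at 2.18, 1.58 and 2.08 CPM in sham, 6.203, 2.14 and 4.29 at 3 h, 5.4995, 5.79 and 5.23 at 6 h and 3.95, 4.85 and 5.29 at 12 h. Its second 3 h library lay within the sham range and all 6 and 12 h libraries above it. Against sham the log2 fold change was 1.12 ± 0.31 at 3 h, 1.50 ± 0.31 at 6 h and 1.27 ± 0.31 at 12 h, with adjusted p of 0.0073, 0.00035 and 0.0029. Without the first 3 h library the 3 h value was 0.73 (adjusted p = 0.083).

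Col14a1, which binds fibrils through decorin, was at 28.3, 21.7 and 24.1 CPM in sham, 12.7, 8.41 and 10.5 at 6 h and 10.8, 10.3 and 7.11 at 12 h. All 6 late libraries were below all sham libraries. This was a log2 fold change of -1.23 ± 0.22 at 6 h (adjusted p = 7.1e-05) and -1.39 ± 0.22 at 12 h (adjusted p = 3.8e-05). The 5 other tested members of the class, Col9a2, Col9a3, Col16a1, Col20a1 and Col22a1, were not called against sham at any time. Of these Col16a1 was the most abundant, at 9.06 ± 0.698 CPM in sham and 9.07 ± 2.62 at 6 h (SD, n = 3).

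Type VI collagen forms beaded filaments close to cells, from a core of Col6a1, Col6a2 and Col6a3 chains. Col6a2 was at 128, 117 and 119 CPM in sham, 146, 116 and 144 at 3 h, 91.5, 65.3 and 81.5 at 6 h and 136, 114 and 61.3 at 12 h, with a 6 h log2 fold change of -0.61 ± 0.20 (adjusted p = 0.013). Without the second 6 h library, the lowest, that value was -0.49 (adjusted p = 0.082), and with read totals as the scale it was -0.56 (0.062). Col6a1 was at 144, 132 and 143 CPM in sham, 177, 127 and 179.9 at 3 h, 116, 74.99 and 110.5 at 6 h and 153, 135 and 64.9 at 12 h. All its 6 h libraries were below sham, and the log2 fold change of -0.48 ± 0.22 did not pass (adjusted p = 0.073).

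Col6a3 kept another course. It was at 107, 83.97 and 83.9 CPM in sham, 76.002, 52.4 and 73.3 at 3 h, 79.2, 75.2 and 101 at 6 h and 126, 111 and 105 at 12 h, and was called in no comparison with sham, with log2 fold changes of -0.45, -0.10 and 0.32. Per length its level relative to Col6a1 was 0.271, 0.233 and 0.215 in sham, 0.158, 0.151 and 0.149 at 3 h, 0.249, 0.367 and 0.335 at 6 h and 0.303, 0.301 and 0.594 at 12 h. The 3 h ratios were below and the 12 h ratios above all sham ratios. Ratios below all sham ratios were found already at 0.5 h (0.190 to 0.206), 1 h (0.119 to 0.209) and 1.5 h (0.174 to 0.194).

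Col6a6, which encodes a less common chain that can take the place of the Col6a3 product, showed the largest fall among members with more than 50 reads in each sham library. It was at 13.6, 14.2 and 13.4 CPM in sham, 10.3, 10.1 and 9.04 at 3 h, 3.37, 1.22 and 2.49 at 6 h and 0.989, 1.21 and 1.31 at 12 h, so every library from 3 h on was below sham. On the log2 scale its difference from sham was -0.49 ± 0.22 at 3 h, not called, -2.53 ± 0.25 at 6 h (adjusted p = 2.4e-08) and -3.55 ± 0.27 at 12 h, 0.0856 times the sham level (adjusted p = 2.0e-09).

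The neighbouring Col6a5 is a gene of few reads, with 44, 4 and 4 in the sham libraries, of which the first held most, and 0, 3 and 1 at 12 h. Its ratio of summed reads at 12 h to sham was 0.0591 (exact 95% interval 0.0155 to 0.161, counting error only), and it was called lower (adjusted p = 0.024). Without the first sham library the log2 fold change was -1.93 (adjusted p = 0.39), so the call rests on that library. It was also lost without the first or the third 12 h library (adjusted p = 0.087 and 0.066).

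Col8a1, a chain of the hexagonal networks found in vessel walls, rose late. It was at 39.04, 37.7 and 41.4 CPM in sham, 48.1, 27.3 and 32.4 at 3 h, 54.995, 54.1 and 59.04 at 6 h and 82.01, 77.1 and 95.6 at 12 h. The 3 h libraries overlapped with sham, and those at 6 and 12 h were all above it. The fitted log2 fold change was 0.51 ± 0.17 at 6 h (adjusted p = 0.018) and 1.11 ± 0.17 at 12 h (adjusted p = 3.5e-05). The 6 h call was lost without the second sham library (adjusted p = 0.06) or the third 6 h library (0.055), with values of 0.48 and 0.47. In the third 12 h library, where Col1a1, Col1a2, Col3a1 and Col5a1 were low, Col8a1 was at its highest.

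Its partner Col8a2 had 15, 12 and 2 reads in the sham libraries and 0, 1 and 2 at 6 h. The ratio of summed reads at 6 h to sham was 0.0894 (exact 95% interval 0.0174 to 0.289), and the gene was called lower (adjusted p = 0.0022). At 12 h it had 8, 4 and 3 reads and was not called.

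The multiplexins Col15a1 and Col18a1 carry glycosaminoglycan side chains and lie in or beside basement membranes, and they moved in opposite directions. Col15a1 was at 213, 201 and 181 CPM in sham, 210.4, 148 and 186 at 3 h, 113, 100.3 and 99.8 at 6 h and 111, 143 and 108 at 12 h. No late library reached the sham range. edgeR gave a log2 fold change of -0.93 ± 0.16 at 6 h (adjusted p = 4.5e-05) and -0.72 ± 0.16 at 12 h (adjusted p = 0.0012). Scaled by read totals alone, the 12 h value was -0.50 (adjusted p = 0.06).

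Col18a1, whose product contains the fragment endostatin, was at 15.5, 14.9 and 15.8 CPM in sham, 29.9, 21.3 and 22.3 at 3 h, 20.5, 27.7 and 24.2 at 6 h and 21.97, 19.5 and 15.9 at 12 h. It was above sham in every library of these times. The log2 fold change was 0.67 ± 0.19 at 3 h (adjusted p = 0.0083), 0.65 ± 0.19 at 6 h (adjusted p = 0.0073) and 0.31 ± 0.19 at 12 h, which did not pass. Without the first 3 h library the 3 h value was 0.50 (adjusted p = 0.061).

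Col7a1, the chain of anchoring fibrils best known from skin, showed the largest rise at 3 h. It had 18, 7 and 8 reads in the sham libraries and 48, 29 and 53 at 3 h. Its level was 1.16, 0.479 and 0.6396 CPM in sham, 2.89, 2.14 and 3.45 at 3 h, 1.77, 2.19 and 2.37 at 6 h and 1.43, 1.31 and 1.31 at 12 h, above sham in every later library. Against sham the log2 fold change was 1.88 ± 0.36 at 3 h, a 3.67-fold difference (adjusted p = 0.0003), 1.45 ± 0.36 at 6 h (adjusted p = 0.002) and 0.81 ± 0.37 at 12 h (adjusted p = 0.1).

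Col28a1, a collagen described around Schwann cells of peripheral nerve, was at 1.35, 1.58 and 3.68 CPM in sham, 4.67, 2.805 and 5.11 at 6 h and 8.73, 5.25 and 5.23 at 12 h. The third sham library overlapped with the 6 h libraries, and the 12 h libraries were above all sham libraries. This was a log2 fold change of 0.95 ± 0.35 at 6 h (adjusted p = 0.028) and 1.56 ± 0.34 at 12 h (adjusted p = 0.0012). The 6 h call was lost without any 1 of 4 libraries, with values of 0.69 and 0.76 without sham libraries 1 and 2, and 0.87 and 0.79 without 6 h libraries 1 and 3.

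Col26a1 nearly vanished at 6 h, from few reads. The libraries held 7, 10 and 8 reads in sham, 3, 4 and 4 at 1.5 h, 17, 13 and 10 at 3 h, 0, 1 and 0 at 6 h and 4, 4 and 1 at 12 h. The ratio of summed reads at 6 h to sham was 0.0346 (exact 95% interval 0.000842 to 0.211), and it was called lower (adjusted p = 4.6e-05). At 12 h the ratio was 0.276 (0.114 to 0.612; adjusted p = 0.01). Without the third 12 h library the 12 h call was lost (log2 fold change -1.45, adjusted p = 0.053).

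Of the transmembrane collagens, only Col13a1 was called, and only at 3 h. It was at 0.771, 1.44 and 0.7995 CPM in sham and 2.05, 1.92 and 1.95 at 3 h, with a log2 fold change of 0.97 ± 0.34 (adjusted p = 0.029). The call was lost without the first or the third sham library (0.80 and 0.84) and without the first or the third 3 h library (0.94 and 0.98), with adjusted p from 0.061 to 0.12. Col23a1 and Col25a1 were not called in any comparison.

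The 11 tested members called in no comparison with sham were Col6a1, Col6a3, Col5a3, Col16a1, Col20a1, Col11a2, Col23a1, Col25a1, Col22a1, Col9a3 and Col9a2. In sham their means ran from 0.177 CPM for Col9a2 to 139.8 for Col6a1. At 6 h their log2 fold changes ranged from -0.65 for Col20a1 to 0.65 for Col9a3.

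**Figure D5:**
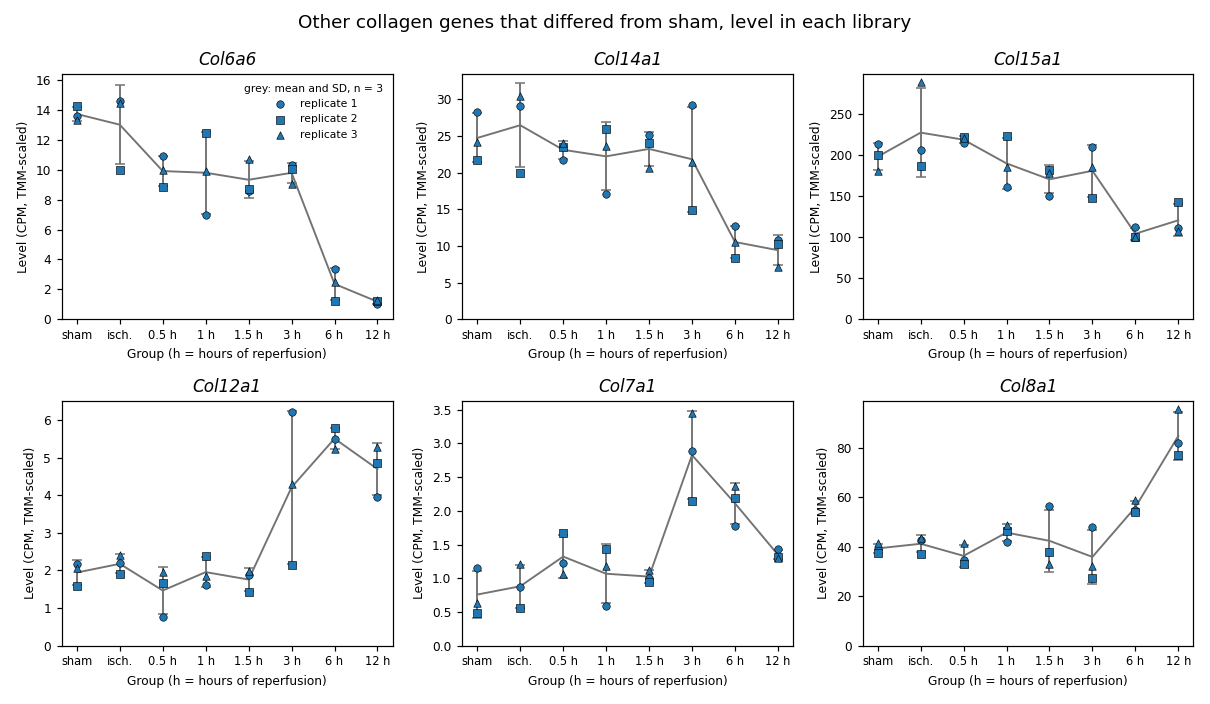
Level of 6 further collagen genes (CPM, y axis from 0) in each library by group (x axis), with the group mean and SD (n = 3) in grey. Col6a6, Col14a1 and Col15a1 were below sham in all 6 and 12 h libraries, Col12a1 and Col8a1 above it at both times, and Col7a1 was highest on average at 3 h.

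Before 3 h no collagen gene was called against sham with edgeR, DESeq2 or limma-voom. After ischemia alone 0 of 36 members were called, beside 0.0925% of all genes higher and 0 lower. An unadjusted p below 0.05 was found for 0 members, beside 1296 of all 15128 genes tested. At 0.5 h 0 were called, beside 7.43% higher and 4.48% lower of all genes, at 1 h 0 beside 7.46% and 3.41%, and at 1.5 h 0 beside 4.55% and 2.99%. The members with an unadjusted p below 0.05 numbered 9 at 0.5 h, 3 at 1 h and 4 at 1.5 h. Among all 15128 genes tested, 4268, 4135 and 3371 were below it at these times. When only the 6 libraries of sham and 0.5 h were fitted, 9 members were called at 0.5 h, beside 3937 genes in all. A fit of the sham and 1.5 h libraries alone called 2 members, beside 2062 genes in all. In these early groups Col6a6 was at 10.9, 8.86 and 9.9998 CPM at 0.5 h, 6.98, 12.5 and 9.94 at 1 h and 8.55, 8.697 and 10.8 at 1.5 h, each library below the sham range of 13.4 to 14.2, with log2 fold changes of -0.47, -0.48 and -0.56 that did not pass (adjusted p = 0.16, 0.16 and 0.13).

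Several abundant genes were higher in value at 0.5 h without passing the test. All 0.5 h libraries lay above all sham libraries for 14 of the 36 tested members, 38.9%, and for 20.8% of all genes tested. Among these 14 were Col4a1, at 998, 1173 and 1076 CPM, Col4a2, at 722, 799.9 and 725, and Col1a1, at 175, 205 and 198. Their log2 fold changes were 0.36, 0.37 and 0.51 (adjusted p = 0.22, 0.17 and 0.23).

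By 1.5 h the means of the main basement membrane and fibril genes were again close to sham, except for Col3a1. Col4a1 was at 844 ± 36.98 CPM (SD, n = 3) in sham, 894 ± 244 after ischemia, 1083 ± 87.8 at 0.5 h, 889 ± 259 at 1 h and 881 ± 49.1 at 1.5 h. Col4a2 was at 580.5 ± 28.98 in sham, 609.6 ± 176 after ischemia, 749 ± 44.1 at 0.5 h, 635 ± 160.4 at 1 h and 612 ± 28.7 at 1.5 h. Col3a1 was at 424 ± 16.8 in sham, 477 ± 86.4 after ischemia, 431 ± 12.8 at 0.5 h, 425 ± 63.8 at 1 h and 334 ± 69.5 at 1.5 h. Within the ischemia group the third library was the highest for these 3 genes, and within the 1 h group the first was the lowest. Col1a1 was at 135 ± 15.2 CPM in sham, 161 ± 53.7 after ischemia, 192 ± 15.8 at 0.5 h, 157 ± 36.4 at 1 h and 141 ± 10.4 at 1.5 h. Col1a2 was at 172 ± 13.7 in sham, 196 ± 45.3 after ischemia, 192 ± 1.57 at 0.5 h, 194 ± 31.1 at 1 h and 158 ± 32.3 at 1.5 h. Per length the ratio of Col1a1 to Col1a2 was 1.69, 1.95 and 1.92 at 0.5 h, above all sham libraries.

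The type V chains were at 84.3 ± 1.67 CPM in sham, 94.8 ± 31.4 after ischemia, 108 ± 4.898 at 0.5 h, 98.9 ± 31.05 at 1 h and 88.9 ± 8.5995 at 1.5 h for Col5a1, and at 56.6 ± 1.33 in sham, 63.01 ± 10.4 after ischemia, 57.4 ± 3.41 at 0.5 h, 60.2 ± 10.6 at 1 h and 58.9 ± 4.47 at 1.5 h for Col5a2. Neither was called at these times. For type VI, Col6a1 was at 139.8 ± 6.98 CPM in sham, 158 ± 36.8 after ischemia, 158 ± 8.63 at 0.5 h, 156 ± 8.997 at 1 h and 135 ± 9.66 at 1.5 h. Col6a2 was at 121 ± 5.87 in sham, 142 ± 31.7 after ischemia, 149 ± 7.77 at 0.5 h, 137 ± 15.6 at 1 h and 119 ± 11.1 at 1.5 h. Col6a3 was at 91.6 ± 13.2 in sham, 89.8 ± 23.8 after ischemia, 84.2 ± 3.94 at 0.5 h, 74.5 ± 23.9 at 1 h and 67.9 ± 1.76 at 1.5 h. All 1.5 h libraries of Col6a3 lay below all sham libraries, which was not the case for Col6a1 or Col6a2.

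The less abundant type IV genes and Col15a1 were also followed before 3 h. Col4a5 was at 77.1 ± 3.26 CPM in sham, 75.4 ± 13.6 after ischemia, 74.2 ± 3.42 at 0.5 h, 76.2 ± 12.5 at 1 h and 70.97 ± 0.813 at 1.5 h. Col4a4 was at 19.5 ± 2.02 in sham, 19.9 ± 3.57 after ischemia, 19.1 ± 1.67 at 0.5 h, 19.9 ± 5.06 at 1 h and 19.5 ± 4.71 at 1.5 h, and Col4a3 at 8.65 ± 0.742 in sham, 9.04 ± 1.36 after ischemia, 8.56 ± 1.596 at 0.5 h, 10.9 ± 1.27 at 1 h and 9.603 ± 0.7696 at 1.5 h. Col4a6 was at 1.93 ± 0.409 in sham, 1.65 ± 0.397 after ischemia, 1.56 ± 0.3702 at 0.5 h, 1.48 ± 0.485 at 1 h and 1.16 ± 0.321 at 1.5 h. Both Col4a5 and Col4a6 lay below sham in all 1.5 h libraries without being called. Col15a1 was at 198 ± 16.6 CPM in sham, 228 ± 54.3 after ischemia, 219 ± 3.96 at 0.5 h, 190.2 ± 31.5 at 1 h and 171 ± 17.2 at 1.5 h.

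Steps between neighbouring times called members from 1.5 h on. From ischemia to 0.5 h 0 members were called (background 0.0331% higher and 0 lower), from 0.5 to 1 h 0 (background 0 in both directions) and from 1 to 1.5 h 0 (background 0.0529% higher and 0.0132% lower), with 0, 0 and 1 members at an unadjusted p below 0.05 and 0 called by DESeq2 or limma-voom. Among all 15128 genes tested, 1871, 1003 and 1592 had an unadjusted p below 0.05 in these steps. Without the third ischemia library 1 member, Col4a2, was called higher at 0.5 h than after ischemia. The calls over all genes then went from 5 to 1156, so the low background of this step depended on that library. It held 19.0% mitochondrial reads, against 30.2% and 29.7% in the others of its group.

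From 1.5 to 3 h 5 members rose and 0 fell, beside 5.36% and 3.17% of all genes. These were Col26a1, from 3, 4 and 4 to 17, 13 and 10 reads, a ratio of 3.59 (exact 95% interval 1.81 to 7.75), Col7a1, by 1.46 ± 0.34 on the log2 scale, Col12a1, by 1.27 ± 0.31, Col4a1, by 0.69 ± 0.19, and Col4a2, by 0.65 ± 0.18, with adjusted p from 0.0095 to 0.026. The count depended on single libraries. It was 2 without the first and 1 without the second 1.5 h library, 1 without the first and 2 without the third 3 h library.

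From 3 to 6 h 1 member, Col8a1, rose and 15 fell, 41.7% of the members, beside 14.7% and 13.2% of all genes. Apart from Col26a1, the largest falls were those of Col6a6, which fell by 2.05 ± 0.25 on the log2 scale (adjusted p = 3.1e-06), Col3a1, which fell by 1.41 ± 0.33 (adjusted p = 0.0027), and Col5a1, which fell by 1.34 ± 0.25 (adjusted p = 0.00032). The fibril-associated Col20a1, not called against sham, fell from 3.61, 3.85 and 3.25 to 1.54, 1.77 and 1.43 CPM, a log2 fold change of -1.17 ± 0.30. Without the second 3 h library the rise of Col8a1 was 0.50 (adjusted p = 0.059).

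From 6 to 12 h 6 members rose and 1 fell, beside 6.49% and 6.68% of all genes. Col3a1 rose by 1.13 ± 0.33 on the log2 scale (adjusted p = 0.024), Col5a1 by 0.93 ± 0.25 (adjusted p = 0.013) and Col1a1 by 0.87 ± 0.28 (adjusted p = 0.04), while Col6a6 fell by 1.01 (adjusted p = 0.027). In 5 of the 7, Col8a1 and Col4a5 excepted, the 6 and 12 h libraries overlapped. The count was 0 without the first 12 h library, 2 without the second 12 h or the second 6 h library and 3 without the third 6 h library. Without the first 12 h library the rise of Col3a1 was 0.83 (adjusted p = 0.15) and that of Col1a1 0.52 (adjusted p = 0.29).

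Ratios between chains, which do not depend on scaling, were compared for 8 pairs in 7 groups against sham, 56 comparisons. With 3 libraries against 3 the exact two-sided permutation test cannot go below p = 0.10, or 0.255 after adjustment over the 56, so none could pass and the ratios are a description. The ratio of Col1a1 to Col1a2 per length was 1.46, 1.55 and 1.34 in sham and 1.48, 1.43 and 1.51 at 6 h, within the sham range or close to it while both genes were below sham. Col6a1 to Col6a2 was 2.14, 2.14 and 2.28 in sham and 2.41, 2.18 and 2.58 at 6 h. Col3a1 to Col1a1 was 1.96, 1.96 and 2.42 in sham, 1.603, 1.41 and 1.501 at 0.5 h, 1.32, 1.11 and 1.29 at 6 h and 1.46, 1.71 and 1.26 at 12 h, below all sham libraries at each of these times. Col4a3 to Col4a4 rose in value from 0.475, 0.4802 and 0.463 in sham to 0.792, 0.706 and 0.692 at 6 h and 0.618, 0.7098 and 0.981 at 12 h.

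Pairs of members that lie within 250000 bases of each other numbered 6. In 3 of them, Col4a1 with Col4a2, Col4a4 with Col4a3, and Col6a6 with Col6a5, both genes were called in the same direction at 12 h. In the other 3, Col3a1 with Col5a2 at a distance of 24614 bases, Col6a2 with Col6a1, and Col4a6 with Col4a5, at most 1 gene of the pair was called at 12 h. The 12 h call of Col6a5 was lost without the first sham library (adjusted p = 0.39). The split was not the same at 6 h. There Col4a6 and Col4a5 were both called lower, at -1.47 and -0.46 on the log2 scale, while of Col6a6 and Col6a5 only Col6a6 was called. At 6 h Col3a1 had a log2 fold change of -1.80 and Col5a2 of 0.20.

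Genes that modify, fold and crosslink collagen did not move as a block. Counts in the lists below stand beside 18.4% higher and 16.9% lower of all genes at 3 h. The same shares were 24.6% and 22.9% at 6 h and 16.9% and 14.9% at 12 h. The lists are small and were chosen with earlier results known, and their counts were not tested against these shares. Of 14 tested genes for chain hydroxylation and glycosylation, 2 rose and 2 fell at 6 h and 5 rose and 3 fell at 12 h. The lysyl hydroxylase and glucosyltransferase Plod3 went from 27.9 ± 4.43 CPM in sham to 55.4 ± 3.53 at 6 h (SD, n = 3), a log2 fold change of 0.99 ± 0.14 (adjusted p = 6.3e-06). The galactosyltransferase Colgalt2 fell by 1.16 at 6 h and by 1.42 at 12 h on the log2 scale, Plod2 by 0.57 at 6 h, and the prolyl hydroxylase subunit P4ha2 by 0.68 at 12 h.

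Of 11 genes for folding and export, 5 rose and 2 fell at 3 h, 4 and 2 at 6 h, and 2 and 2 at 12 h. The endoplasmic reticulum chaperone Hspa5 was 1.16 higher at 3 h on the log2 scale and 0.56 higher at 6 h. Fkbp10, which assists collagen folding, went from 18.6 ± 2.501 CPM in sham to 47.2 ± 1.97 at 12 h, a log2 fold change of 1.35 ± 0.14 (adjusted p = 2.4e-07). The transcription factor Creb3l1 rose by 1.06 and the export receptor Mia2 fell by 0.81 at 6 h. Of 8 genes for propeptide removal 0 rose and 2 fell at 6 h, Tll2 by 2.10 and Adamts3 by 1.05.

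In the crosslinking and fibril assembly list, 3 of 11 rose and 3 fell at 6 h, and 5 rose and 3 fell at 12 h. Lox, which starts collagen crosslinks, went from 10.1 ± 1.83 CPM in sham to 40.1 ± 3.21 at 6 h and 50.4 ± 3.804 at 12 h, with log2 fold changes of 1.99 ± 0.20 and 2.31 ± 0.20 (adjusted p = 3.5e-08 and 1.3e-08). Its relative Loxl4 rose by 2.39 and 2.62. The fibril-binding proteoglycan genes Lum and Fmod fell, Lum by 1.77 at 6 h and Fmod by 2.45 at 12 h. Lox thus rose at 6 h, when the fibril-forming genes Col1a1, Col1a2 and Col3a1 were lower.

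Among 10 tested collagen receptors, 4 rose and 1 fell at 6 h, and 2 rose and 1 fell at 12 h. The receptor tyrosine kinase Ddr1 rose by 1.20 ± 0.14 at 6 h and by 0.66 ± 0.14 at 12 h on the log2 scale, Adgrg1, a receptor for type III collagen, by 0.99 ± 0.15 at 6 h, and the integrin subunit Itga11 fell by 0.81. Of 12 genes for collagen breakdown 6 rose and 4 fell at 6 h, and 5 rose and 4 fell at 12 h. The neutrophil collagenase Mmp8 was at 0.0267 ± 0.0462 CPM in sham and 11.3 ± 4.29 at 6 h, the inhibitor Timp1 rose from 1.91 ± 0.808 to 65.8 ± 15.3, and the fibroblast protease Fap fell by 1.72. The sham mean of Mmp8 lay below the level of 3 reads, 0.152 to 0.240 CPM, so the size of its rise is not well defined. Of 11 tested genes for profibrotic signalling 8 rose and 0 fell at 6 h, beside 24.6% and 22.9% of all genes. Their median log2 fold change was 1.03, and among them Thbs1 rose by 4.17, Ccn2 by 3.50 and Tgfb2 by 2.64. At 12 h 7 rose and 0 fell, beside 16.9% and 14.9% of all genes.

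Markers of the cell types that make collagen moved in both directions. Of all genes tested, 24.6% were higher and 22.9% lower at 6 h, and 16.9% and 14.9% at 12 h. Of 9 fibroblast markers 3 rose and 4 fell at 6 h, and 2 rose and 4 fell at 12 h. Their summed level was 1672 to 1752 CPM in sham, 1985 to 2090 at 3 h, 1189 to 1592 at 6 h and 1226 to 1506 at 12 h, none at 0. Among them Lum was at -1.77 and Pdgfra at 0.39 on the log2 scale at 6 h. Of 7 activated fibroblast markers 6 were tested, of which 2 rose and 2 fell at 6 h, and 2 rose and 1 fell at 12 h. The matrix gene Tnc rose by 3.86 and Postn by 0.56 on the log2 scale at 6 h, and Fap and Cilp fell. The sum of the 7 was 201 to 240.3 CPM in sham, 276 to 391 at 3 h, 245 to 303 at 6 h and 285 to 367 at 12 h, above sham at each of these times, while the fibroblast sum was below sham at 6 and 12 h. Of 8 endothelial markers 2 rose and 1 fell at 6 h, and 1 rose and 2 fell at 12 h, with sums of 1111 to 1191 CPM in sham, 1308 to 1405 at 3 h, 1380 to 1395 at 6 h and 1078 to 1176 at 12 h. The 3 and 6 h sums lay above sham, as did Col4a1 and Col4a2, and the 12 h sums did not.

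Of 8 pericyte and smooth muscle markers, 3 rose and 3 fell at 6 h, beside 24.6% and 22.9% of all genes. Their sums were 1501 to 1545 CPM in sham, 904 to 1154 at 6 h and 953 to 970.2 at 12 h. The 6 tested of 7 neutrophil markers all rose at 6 h, from a sum of 1.73 to 5.12 CPM in sham to 61.1 to 147 at 6 h and 51.2 to 58.9 at 12 h. Macrophage and monocyte markers (8 genes) summed to 290 to 315 CPM in sham and 242 to 310.3 at 6 h, and 5 rose and 2 fell. Mesothelial markers (6 genes) summed to 27.9 to 31.3 CPM in sham, 19.7 to 22.2 at 6 h and 10.2 to 12.8 at 12 h. The part of these cell types in the collagen results was not tested.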

How the data were processed

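RNA-seq libraries were made from total RNA with a TruSeq kit, per the labels' protocols. The deposited tables give, per library, the authors' counts of uniquely mapped reads per Ensembl gene on the build mm10, which the submitters' processing notes name. The aligner, the counter and the use of strand were not given in the sources used here. Counts with duplicates kept were the main values. Duplicates made up 39.2% to 54.5% of reads, and counts without them were an alternative. Sham libraries held 50.1% to 54.4% duplicates, against 41.9% to 45.5% at 6 h and 39.2% to 47.7% at 12 h. Symbols were matched for 45143 of 46078 genes.

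All 24 libraries were fitted together with edgeR 4.0.16 (quasi-likelihood test, TMM scaling, filterByExpr with a minimum count of 10, 16 residual degrees of freedom) in R 4.3.3, with Benjamini-Hochberg adjustment over 15128 genes and a threshold of 0.05. Standard errors are the log2 fold change divided by the root of F. Alternatives were DESeq2 1.42.0, limma-voom (limma 3.58.1), other scalings, no filter, counts with multimapped reads, only the compared libraries, the replicate number as a block, and leaving out each library. The fit was also run on simulated counts in which genes changed only in the 6 h group. Far fewer genes changed there than were called at 6 h in the data, so scaling under such broad change was not checked. Intervals on reads are exact 95% intervals and cover counting error only.

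Each comparison names up to 6 called members per direction with the largest change, up to 4 per step and up to 3 per pathway list. The members and lists were chosen with earlier results of these data known. Levels of 1 cell type marker list are not reported here.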

Additional observations from a re-analysis of the deposited data

Results flagged for a closer look

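Among the steps between neighbouring times, 28 differences of a collagen gene passed edgeR's test of the step itself (adjusted p under 0.05), which is a direct test of whether the difference from sham changed between the 2 times. They are given on the log2 scale, the later time minus the earlier.

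From 1.5 to 3 h the values were 1.81 for Col26a1, 1.46 for Col7a1, 1.27 for Col12a1, 0.69 for Col4a1 and 0.65 for Col4a2. From 3 to 6 h Col8a1 was at 0.64 and the other 15 were below 0. The basement membrane genes were at -1.21 for Col4a4, -1.20 for Col4a6, -0.91 for Col4a3 and -0.50 for Col4a5. Of 15 alternatives, 7 lost the call of Col4a6 and 4 that of Col4a3. Without the first 3 h library edgeR gave -0.44 for Col4a6 (adjusted p = 0.45) and -0.53 for Col4a3 (adjusted p = 0.15). The fibril-forming genes were at -1.41 for Col3a1, -1.34 for Col5a1, -1.13 for Col1a1 and -1.06 for Col1a2. Type VI genes were at -2.05 for Col6a6, -0.77 for Col6a2 and -0.68 for Col6a1. The others were Col26a1 at -4.98, which rests on 1 read in all at 6 h, Col20a1 at -1.17, Col14a1 at -1.05 and Col15a1 at -0.80.

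From 6 to 12 h the values were 1.13 for Col3a1, 0.93 for Col5a1, 0.87 for Col1a1, 0.74 for Col1a2, 0.60 for Col8a1, 0.53 for Col4a5 and -1.01 for Col6a6. Col4a5 was thus lower at 6 h than at both neighbouring times, and Col8a1 was higher at each later time. Without the first 12 h library 0 of these 7 passed edgeR's test.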

How the results depend on the processing

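Over all alternatives, 71 calls of a collagen gene in a comparison were followed. Of these 41 passed under every alternative, 30 lost the call under at least 1, and 0 changed direction. The total counts at 3, 6 and 12 h against sham stayed within 1.5 times under each alternative, but the split at 3 h, 6 higher and 0 lower, became 3 and 1 without the first 3 h library, 5 and 1 without the third sham library, 5 and 2 without a filter and 6 and 2 with only the compared libraries. The other counts moved as follows, and where no sentence says otherwise the cause was not tested. At 0.5 h against sham 0 members were called in the chosen fit, 4 without a filter on low counts and 9 when only the compared libraries were fitted. Over all genes these fits called 1802, 2012 and 3937. At 1.5 h 0 members became 2 with only the compared libraries, while the calls over all genes went from 1141 to 2062. From ischemia to 0.5 h the count ran from 0 to 1 when 1 library was left out, with 1156 calls over all genes where it was 1. From 0.5 to 1 h it was 1 without a filter, with 159 calls over all genes. From 1.5 to 3 h the 5 calls became 3 with read totals as the scale, 3 with only the compared libraries and 1 to 5 with 1 library left out. From 6 to 12 h the 7 calls became 3 with only the compared libraries and 0 to 10 with 1 library left out. Read totals moved the median of all genes by 0.13 at 0.5 h, 0.22 at 12 h and 0.17 from 6 to 12 h, and turned the split there into 7 higher and 0 lower.

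With the replicate number as a block, the counts were 6, 22 and 15 at 3, 6 and 12 h, 5, 16 and 7 in the later steps and 25 in the test over all groups, and no member's call was lost. Libraries of the same number did not deviate together: over 84 pairs the correlation ran from -0.179 to 0.199, with 6 pairs over 0.1, so the numbers were not taken as pairs. Genes such as Col26a1, Col8a2 and Col6a5, with fewer than 60 sham reads in all, are limited by depth, since 3 reads correspond to 0.152 to 0.240 CPM.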
